A study of Mus musculus with 8 samples.

Results

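Liver progenitor and oncofetal marker genes were followed across 8 RNA-seq libraries of cultured mouse liver cancer cells. The 10 genes were Afp, Gpc3, Dlk1, Epcam, Prom1, Sox9, Sox4, Spp1, Cd44 and Cd24a, taken by gene symbol from the 54838 genes listed for each library. The libraries comprised 7 from 3H3PM subclones, numbered 1, 2, 3, 6, 7, 8 and 9, and 1 from 3H3P, so each subclone is 1 isolate with 1 library and the parent has no replicate. All 8 descend from 3H3, a line grown out of a liver tumour of a C57BL/6 mouse lacking MC4R that ate a high-fat diet, and all carry HrasQ61L. In 3H3P the Trp53 gene was knocked out with CRISPR/Cas9, and the loss of p53 protein is stated in the labels. 3H3PM is 3H3P with ectopic MYC, and its subclones were isolated from tumours that these cells formed in nude mice. No 3H3PM library from before transplantation was analysed here, so MYC, passage through the mouse and the choice of an isolate cannot be told apart. The labels do not state the age of the animals.

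An oncofetal gene is one that is active in the fetal liver, is shut down after birth and is often switched on again in liver cancer. Afp, Gpc3 and Dlk1 are the usual examples, encoding a secreted plasma protein, a heparan sulphate proteoglycan of the cell surface and a membrane protein of the Notch ligand family. Liver progenitor cells, which share features of hepatocytes and of bile duct cells, are recognised by the transcription factor SOX9, the adhesion molecule EPCAM, the membrane glycoproteins CD133 (Prom1), CD24 and CD44, and secreted osteopontin (Spp1). SOX4 acts beside SOX9 in the developing bile ducts of the mouse.

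Some of the 10 genes were abundant and others nearly silent. Spp1, Cd24a, Sox4, Cd44 and Sox9 were expressed in all 8 libraries, Afp was detected at a low level in all 8, and Gpc3, Dlk1, Prom1 and Epcam had at most 3 reads in any library. Against 3H3P, the 7 subclones had lower values of Spp1, Cd44 and Cd24a and higher values of Sox4 and Afp in every isolate, but none of these differences passed the test. For 57.4% of all genes tested 3H3P likewise lay outside the subclones' range. In Afp counts, subclones 1, 2 and 8 were within a single count of 3H3P. Over 12 further gene lists, each gene counted once, 12 genes were higher and 27 lower in the subclones and passed the test. These lists hold related genes and also markers of hepatocytes and of other cell types. Of 8 tested regulators of Afp, 1 was higher and 3 lower, and of 21 bile duct and progenitor genes 2 and 9. Of 21 partners of osteopontin and CD44, 1 was higher and 3 lower, and of 5 other SOX genes 0 passed. Of all genes tested, 7.33% were higher and 11.8% lower.

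The libraries held 12838521 to 17987068 expected counts, which are RSEM's estimates of the number of reads from a gene, and 3H3P had 16855985. Mitochondrial genes took 1.97% to 2.31% of the counts in the subclones and 3.18% in 3H3P. Across genes, log2 expression correlated at r = 0.938 to 0.980 over the 21 pairs of subclones and at r = 0.843 to 0.886 between each subclone and 3H3P, a description only since genes are not independent. Counts are given as CPM, scaled to the library total and by TMM, and levels of different genes are compared as the deposited TPM, which is per length. Differences were tested with edgeR's quasi-likelihood test and Benjamini-Hochberg adjustment over 14634 genes, with an adjusted p under 0.05 as the threshold. With 1 library of 3H3P the spread comes from the subclones alone and 3H3P is taken to vary as they do. A p-value thus sets the difference from 3H3P against the spread between isolates. How much 3H3P itself varies is not measured.

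The promoters of a secreted, a surface and a fetal marker are shown because Spp1 and Cd44 had the largest differences among the markers that were lower and Afp the largest among those that were higher. Of the 10 genes, 8 matched RefSeq's promoter table for GRCm38.p6, and 250 bases before RefSeq's start site are printed 5′ to 3′ on the gene's strand for Spp1 (chr5:104434861-104435110, plus strand), Cd44 (chr2:102901666-102901915, minus strand) and Afp (chr5:90490464-90490713, plus strand). Capitals mark matches on either strand to the motifs searched, which were the MYC E-box CACGTG, AP-1 TGANTCA, the CCAAT box, RUNX AACCACA, ETS AGGAAG and the TATA box TATAAA.
Spp1: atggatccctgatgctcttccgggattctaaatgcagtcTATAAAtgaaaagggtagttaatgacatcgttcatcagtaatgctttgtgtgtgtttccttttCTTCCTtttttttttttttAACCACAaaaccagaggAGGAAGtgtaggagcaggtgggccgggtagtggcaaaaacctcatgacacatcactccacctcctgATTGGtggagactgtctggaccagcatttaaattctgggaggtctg
Cd44: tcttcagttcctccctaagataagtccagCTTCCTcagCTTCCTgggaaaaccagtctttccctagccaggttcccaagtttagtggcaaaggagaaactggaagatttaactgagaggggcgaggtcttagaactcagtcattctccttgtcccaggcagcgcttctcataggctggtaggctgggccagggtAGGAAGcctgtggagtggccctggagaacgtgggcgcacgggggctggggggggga
Afp: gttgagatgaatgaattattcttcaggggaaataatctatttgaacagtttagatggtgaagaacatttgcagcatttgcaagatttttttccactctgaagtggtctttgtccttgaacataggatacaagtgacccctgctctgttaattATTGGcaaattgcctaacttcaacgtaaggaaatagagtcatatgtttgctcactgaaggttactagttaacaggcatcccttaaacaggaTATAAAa
None of the 8 windows held the letters CACGTG, which occurred in 6.05% of 27025 promoters of the same length. The Afp window held a CCAAT box that begins 98 bases before RefSeq's start site and a TATA box at 7. For Afp and Spp1 the gene start given below lies downstream of the window's end, at 90490737 against 90490713 for Afp. Distances here are therefore from RefSeq's start site only. The Spp1 window held ETS matches at 148 and 112, a RUNX match at 129, a CCAAT box at 46 and TATAAA at 211. The Cd44 window held ETS matches at 221, 212 and 56. No matches overlapped in these windows. Of all promoters, 34.5% held a CCAAT box, 29.2% the ETS letters, 12.97% TATAAA, 6.87% AP-1 and 4.46% RUNX, so a match is a description of these letters and not a site of binding.

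Of the 10 genes, 6 had enough reads to be tested and 0 passed the threshold in edgeR, against 19.1% of the 14634 genes tested. Unadjusted p was under 0.05 for 3 of the 6, Spp1, Cd44 and Cd24a, against 34.1% of genes, and 18.8% of genes had such a p with lower values in the subclones, as these 3 did. DESeq2 and limma-voom also called 0 of the 6. All 7 subclones were below 3H3P for the same 3 genes, as for 30.4% of genes tested, and above it for Sox4 and Afp, as for 27.1%, while Sox9 overlapped. For 57.4% of genes tested 3H3P lay outside the subclones' range. The median log2 fold change over the 6 was −0.26, beside 0.03 over all genes tested. Afp passed the filter on low counts only through the subclones.

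**Figure D1:**
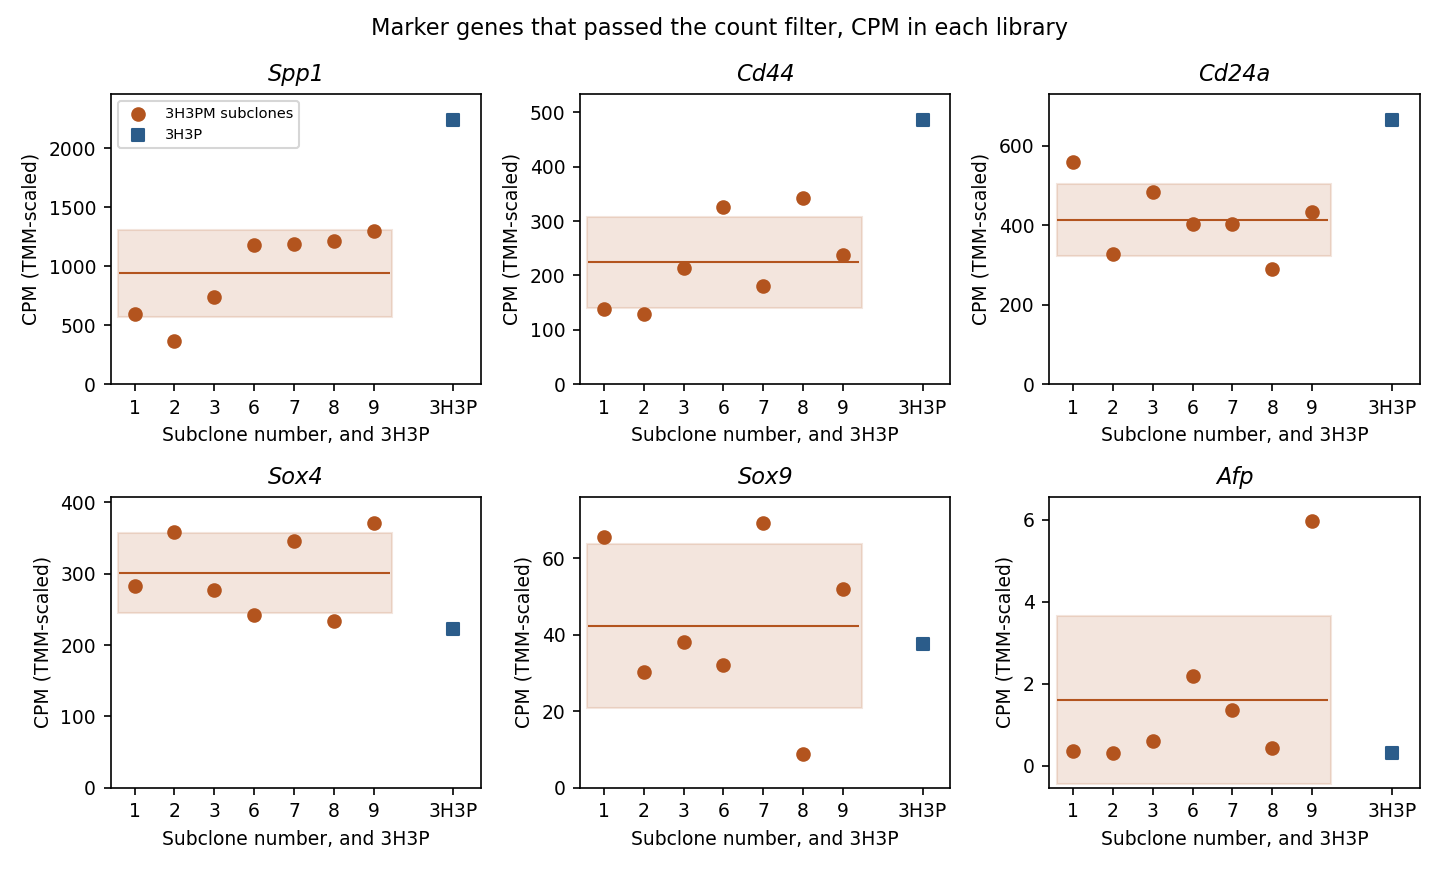
TMM-scaled CPM (linear axis) of the 6 tested marker genes in each of the 7 3H3PM subclones (circles, numbered) and in 3H3P (squares, 1 library). Lines and bands are the subclones' mean and SD (n = 7), and the Afp band reaches below 0 because its SD exceeds its mean. For Spp1, Cd44 and Cd24a the square lies above all circles, for Sox9 it lies among them, and for Afp subclone 9 stands at 5.95 CPM.

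Spp1 encodes osteopontin, a secreted protein that binds integrins and CD44 and that marks the reactive bile duct and many liver cancers. Its gene lies at chr5:104435118-104441050 on the plus strand. Over the subclones it had 366 CPM at the lowest, 1176 at the median and 1298 at the highest, against 2238 CPM in 3H3P. Subclones 6, 7, 8 and 9 lay close together between 1176 and 1298 CPM, subclones 1, 2 and 3 between 366 and 739 CPM, and all 7 were below 3H3P. The mean was 940.0 ± 368 CPM (SD, n = 7), and the log2 fold change was −1.25 (SE 0.51, edgeR adjusted p = 0.118). Its mean of 1152 ± 459 TPM in the subclones exceeded that of 99.75% of all listed genes. The unclassified transcript Gm42793 shares 181 exonic bases with Spp1 on the same strand and held 18 to 62 counts in the subclones and 36 in 3H3P, so few reads were divided between them.

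Cd44 encodes the hyaluronan receptor that also binds osteopontin, and lies at chr2:102811141-102901665 on the minus strand. It had 129.5 CPM at the lowest, 214 at the median and 342 at the highest over the subclones, against 486 CPM in 3H3P. Subclones 6 and 8 were highest and subclones 1 and 2 lowest, and no subclone reached 3H3P. The mean was 224 ± 84.3 CPM (SD, n = 7), with a log2 fold change of −1.12 (SE 0.44, edgeR adjusted p = 0.108). The same subclones, 6 and 8, had the highest values of the cytokine gene Il11, with 15.2 and 31.1 CPM. The other subclones had 0.831 to 3.51 CPM and 3H3P had 0.124 CPM. Il11 is on none of the gene lists used here, and its relation to Cd44 was not tested. Pdgfra was also highest in these subclones, so the pattern is not particular to Il11. The counts do not separate the splice forms of CD44.

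Cd24a encodes the small glycosylphosphatidylinositol-anchored glycoprotein CD24 and lies at chr10:43578284-43584265 on the plus strand. It had 290.0 CPM at the lowest, 404 at the median and 559 at the highest over the subclones, against 665 CPM in 3H3P. Subclone 1 was highest and subclone 8 lowest, and the groups did not overlap. The mean was 414 ± 90.6 CPM (SD, n = 7), with a log2 fold change of −0.68 (SE 0.28, edgeR adjusted p = 0.122).

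Sox4 encodes a transcription factor of fetal and progenitor cells and lies at chr13:28948919-28953713 on the minus strand. It had 234 CPM at the lowest, 283 at the median and 370.4 at the highest over the subclones, against 223 CPM in 3H3P. Subclones 8 and 6 were nearest to 3H3P and subclone 9 was highest. The mean was 301.5 ± 56.05 CPM (SD, n = 7), with a log2 fold change of 0.43 (SE 0.27, edgeR adjusted p = 0.294). Sox4 shares 2616 exonic bases with Gm26735, a long noncoding RNA on the opposite strand, and no label states whether reads were counted by strand, so the division of reads between them is uncertain. Gm26735 held 3.007% to 7.355% of the reads of both in the subclones and 5.86% in 3H3P. Their summed value was 241.5 to 399.8 CPM in the subclones and 237 CPM in 3H3P.

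Sox9 encodes the transcription factor that marks bile duct and progenitor cells, and lies at chr11:112782224-112787760 on the plus strand. It had 8.745 CPM at the lowest, 38.2 at the median and 69.1 at the highest over the subclones, against 37.7 CPM in 3H3P. Subclones 1, 3, 7 and 9 were above 3H3P, subclones 2, 6 and 8 below it, and subclone 8 stood lowest with 118 counts. The mean was 42.3 ± 21.4 CPM (SD, n = 7), with a log2 fold change of 0.17 (SE 0.79, edgeR adjusted p = 0.903). Its sign turned with limma-voom, at −0.06, so Sox9 has no direction here.

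Afp encodes alpha-fetoprotein, the main plasma protein of the fetal liver and a serum marker of liver cancer, and lies at chr5:90490737-90508907 on the plus strand. Its counts were 6, 5, 11, 33, 18, 6 and 86 in subclones 1, 2, 3, 6, 7, 8 and 9, against 5 in 3H3P. In CPM this was 0.319 at the lowest, 0.604 at the median and 5.95 at the highest over the subclones, against 0.311 in 3H3P. Subclones 9, 6 and 7 stood above the rest, while subclones 1, 2 and 8 were within a single count of 3H3P, so that its place below all 7 is not a separation. The mean was 1.605 ± 2.035 CPM (SD, n = 7), with a log2 fold change of 2.33 (SE 1.84, edgeR adjusted p = 0.408). Without subclone 9 it was 1.47 (adjusted p = 0.472, in a range of 0.3095 to 0.611 over the alternatives).

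The remaining 4 genes were at or near 0 in both groups. Epcam, at chr17:87635979-87651129 on the plus strand, had 0 of 123043878 counts over the 8 libraries, which allows up to 3 counts or 0.0244 CPM, covering counting error only. Gpc3, at chrX:52272426-52613950 on the minus strand, had 2 counts in subclone 7 and 0 in the other subclones, against 0 in 3H3P. Dlk1, at chr12:109452823-109463336 on the plus strand, had 1 count in each of subclones 1, 2 and 8, against 0 in 3H3P. Prom1, which encodes CD133 and lies at chr5:43993620-44102032 on the minus strand, had 1 count in subclone 1 and 3 in subclone 3, against 2 in 3H3P. A count of 0 in a single library allows 0.167 to 0.234 CPM, so no fold change is given for these genes.

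Per length, the genes kept nearly one order in both groups. In the subclones the mean TPM was 1152 ± 459 for Spp1, 378 ± 85.7 for Cd24a, 95.2 ± 19.3 for Sox4, 93.4 ± 35.6 for Cd44, 15.7 ± 8.21 for Sox9 and 1.59 ± 1.91 for Afp (SD, n = 7 each). In 3H3P the TPM was 2596 for Spp1, 575 for Cd24a, 192 for Cd44, 66.8 for Sox4, 13.2 for Sox9 and 0.25 for Afp. Spp1 exceeded Cd24a by 1.43 to 5.60 times in the subclones and by 4.51 times in 3H3P, and Cd24a exceeded Cd44 by 1.80 to 9.00 times in the subclones and by 3.00 times in 3H3P. The order of Cd44 and Sox4 did not hold across libraries: the ratio of Cd44 to Sox4 was 0.4995 to 1.997 in the subclones, above 1 in 2 of 7, and 2.87 in 3H3P. These neighbours did not differ beyond their spread in the subclones. Dlk1, Prom1, Gpc3 and Epcam were each under 1 TPM in all 8 libraries.

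**Figure D2:**
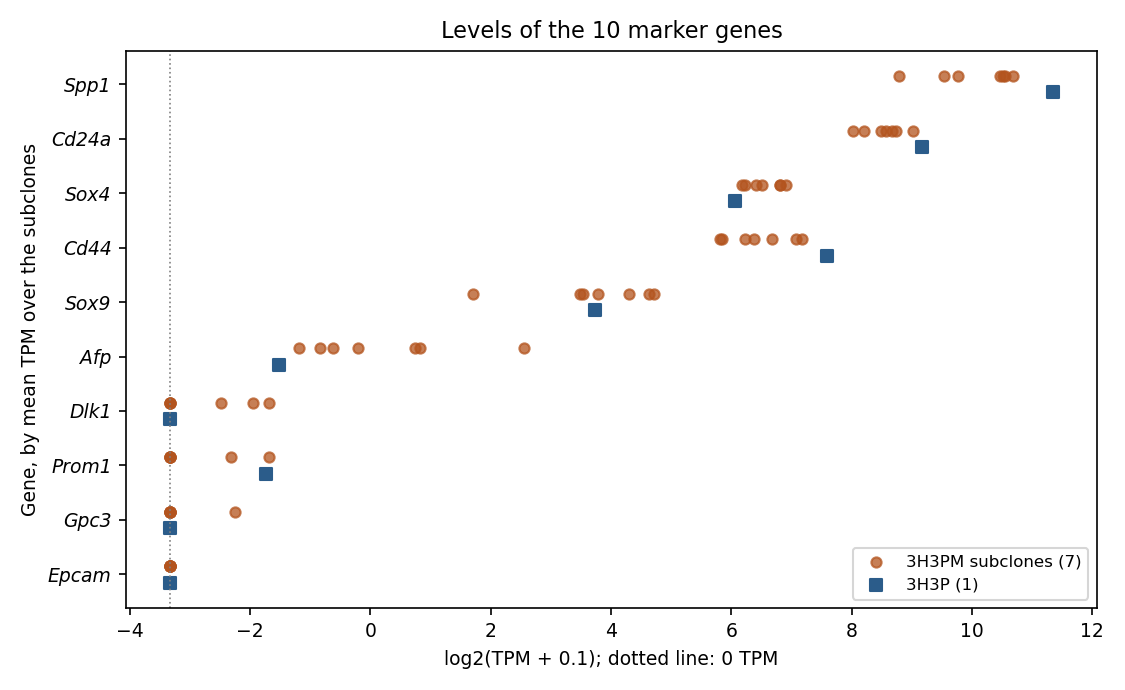
Level of each marker gene as log2(TPM + 0.1), a scale per length, with genes down the page by mean TPM in the 3H3PM subclones. Circles are the 7 subclones, squares the single 3H3P library, and the dotted line is 0 TPM. Spp1 and Cd24a lie at the top in every library, the Sox4 and Cd44 circles overlap, and the lowest 4 genes crowd at the dotted line.

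Among themselves the subclones differed most in Afp and Sox9. The SD of log2 CPM over the 7 subclones was 1.40 for Afp, 1.01 for Sox9, 0.69 for Spp1, 0.55 for Cd44, 0.32 for Cd24a and 0.27 for Sox4. The median SD of the 12151 genes with a mean of at least 1 CPM was 0.28, and 3.19% of these genes had a larger SD than Afp, 6.59% than Sox9, 13.04% than Spp1, 19.1% than Cd44, 42.1% than Cd24a and 52.4% than Sox4. Counting error adds to the spread of Afp, which had 5 to 86 counts. The SD of Sox9 was 0.52 without subclone 8. From the lowest to the highest subclone, CPM differed by 18.6 times for Afp, 7.905 times for Sox9, 3.55 times for Spp1 and 1.58 times for Sox4.

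No pair of the 6 genes varied together beyond the test. Of 15 pairs, 0 had an adjusted p under 0.05 in an exact permutation test of Pearson's r over the 7 subclones (2-sided, smallest possible p 0.0003968), and 9 of the correlations were positive and 6 negative. Sox9 and Cd24a had r = 0.78 (exact permutation p = 0.0337, adjusted p = 0.317) and rho = 0.75 (exact permutation p = 0.0663, adjusted p = 0.331). Subclone 8 was lowest for both genes, and r was 0.56 without it (exact permutation, adjusted p = 0.963). Without the 2 subclones farthest from the median of Sox9, which were 7 and 8, r was 0.81. The value of r thus depended on which subclones were left out, and not on subclone 8 alone. Spp1 and Cd44 had r = 0.79 (exact permutation p = 0.0423, adjusted p = 0.317) and rho = 0.75 (exact permutation p = 0.0663, adjusted p = 0.331). Without the 2 subclones farthest from the median of Spp1 r was 0.30, so this relation rests on those subclones. In the plot of pairs subclones 1 and 2 are low for both genes. Subclones 6 and 8 are highest for Cd44, but subclone 6 stands at the median of Spp1, 1176 CPM. Subclone 7, with 1191 CPM of Spp1, had 180 CPM of Cd44, below the Cd44 median of 214 CPM.

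**Figure D3:**
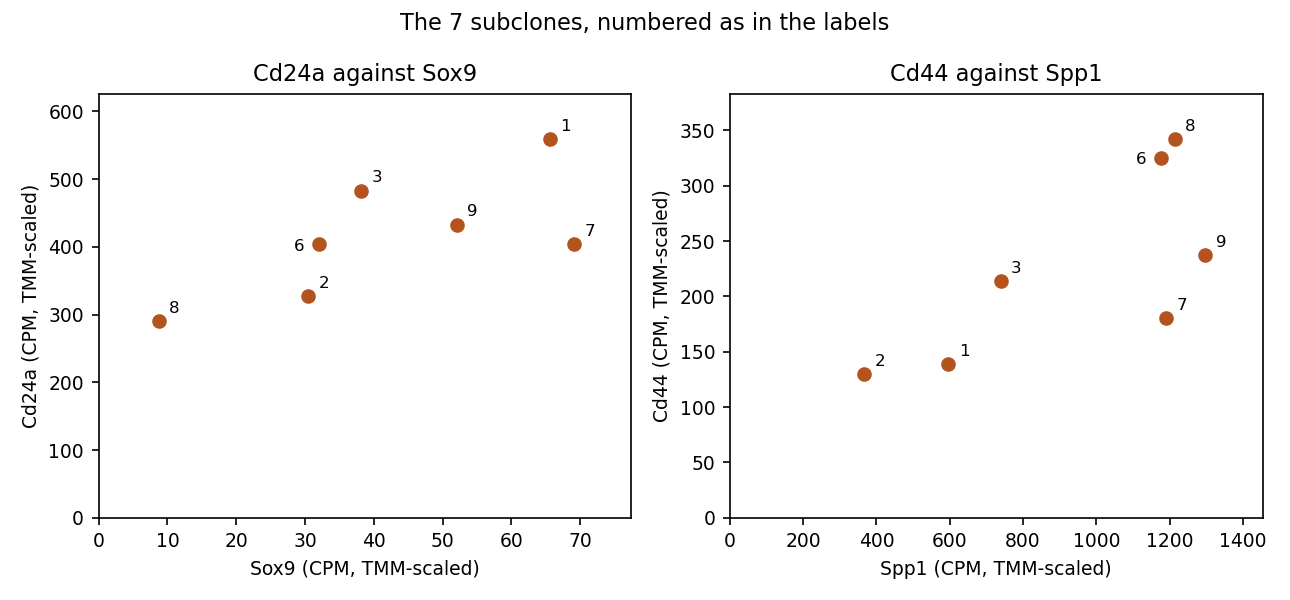
Cd24a against Sox9 and Cd44 against Spp1 in the 7 3H3PM subclones, as TMM-scaled CPM on linear axes, with points numbered by subclone. Subclone 8 lies lowest for Sox9 at 8.745 CPM and for Cd24a at 290.0 CPM, and subclones 1, 2 and 3 lie apart from the other 4 for Spp1.

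Each gene was also set beside the genes whose log2 CPM ran most alike over the 7 subclones, among 1068 or 1069 genes with a mean of at least 10 CPM and an SD of at least 0.5. These values share libraries and carry no test. Spp1 ran most like Pcdh7 (r = 0.990), Ugt1a7c (0.984) and Ncam1 (0.984), with 95 genes above r = 0.9. Ugt1a7c shares exons with the other genes of its locus, so its counts are uncertain. Cd44 ran most like Plau (r = 0.985), Trp53inp2 (0.984) and Manba (0.981), with 126 genes above 0.9. Plau, which encodes the urokinase plasminogen activator, was at 23.5 CPM at the lowest, 56.2 at the median and 138 at the highest over the subclones, against 4.915 CPM in 3H3P, so it lay on the other side of 3H3P from Cd44. Sox9 ran most like Bgn (r = 0.976), Dab2 (0.967) and En2 (0.9545), with 16 genes above 0.9. Sox4 ran most like Aven (r = 0.984), Lrrc8b (0.965) and Bmf (0.955), with 12, and Cd24a most like the imprinted gene Peg3 (r = 0.952), Ank (0.937) and Smarca2 (0.936), with 5.

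Foxa2 and Hnf4a, which encode factors that drive liver genes such as Afp, fell in the subclones, whereas Afp did not pass the test. Of 8 tested genes of the list of Afp regulators, 3 were lower, 1 was higher and 4 did not pass (4 of 8 called, against 19.1% of all genes), with a median log2 fold change of −1.38, beside 0.03 over all genes, of which 11.8% were lower and 7.33% higher. Foxa2 averaged 0.689 ± 0.577 CPM in the subclones against 80.8 CPM in 3H3P (log2 fold change −6.83, SE 0.80, edgeR adjusted p = 0.000817), and Hnf4a 0.7875 ± 1.23 CPM against 54.2 CPM (−6.09, adjusted p = 0.00462, and −7.29 without subclone 9, which held 51 of its counts). Zhx2, which in the mouse liver represses Afp after birth, also fell, with 15.65 ± 3.097 CPM in the subclones against 41.6 CPM in 3H3P (−1.41, adjusted p = 0.00838). Foxa1, named after its value was seen, moved the other way: it had 8919 counts over the subclones against 0 in 3H3P, at least 472-fold higher against a limit of 3 counts in 3H3P, and passed the filter through the subclones alone (adjusted p = 0.0210 in edgeR and 0.453 in limma-voom, the highest of 15 alternatives).

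Other oncofetal genes moved both ways. Of 10 tested, 2 were higher, 3 lower and 5 did not pass (5 of 10 called, against 19.1% of all genes; median log2 fold change −1.15). Igf2, the fetal growth factor, averaged 985 ± 271 CPM in the subclones against 184 CPM in 3H3P (log2 fold change 2.42, SE 0.47, edgeR adjusted p = 0.00869), and Hmga1, a chromatin protein of embryonic cells whose near-identical gene copies make its counts uncertain, 324 ± 48.15 CPM against 75.6 CPM (2.10, adjusted p = 0.00123). Igf2bp3, an RNA-binding protein, averaged 5.50 ± 2.18 CPM in the subclones against 53.2 CPM in 3H3P (−3.27, SE 0.40, adjusted p = 0.00108). Trim71, which is active in early embryos, averaged 0.376 ± 0.167 CPM against 3.48 CPM (−3.18, adjusted p = 0.00771), and it passed the filter on low counts through 3H3P alone, with at most 10 counts in a subclone. H19, the imprinted neighbour of Igf2, had 147 counts over the subclones, 134 of them in subclone 7, and 0 in 3H3P, and did not pass (adjusted p = 0.395). Without subclone 7 it had 13 counts over the other subclones, which gives no fold change against a limit of 3 counts in 3H3P. Meg3, Rtl1 and Dio3, which lie in the imprinted domain of Dlk1, were at 0 counts in all 8 libraries, as was Lin28a.

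Gpc3 had 2 reads in all, while other genes of its family were well detected. Of 12 tested glypican and heparan sulphate genes, 3 were higher, 2 lower and 7 did not pass (41.7% called, against 19.1% of all genes; median log2 fold change 0.04). Gpc1 averaged 77.2 ± 31.4 CPM in the subclones against 6.91 CPM in 3H3P (log2 fold change 3.48, SE 0.83, edgeR adjusted p = 0.0194), while Gpc4, which neighbours Gpc3 on the X chromosome, averaged 2.09 ± 1.68 CPM against 38.1 CPM (−4.20, SE 1.00, adjusted p = 0.0195). Sdc1, a syndecan, averaged 178 ± 13.1 CPM in the subclones against 288 CPM in 3H3P (−0.69, adjusted p = 0.0114). Notum, a secreted enzyme that inactivates Wnt proteins, averaged 11.3 ± 6.845 CPM against 0.311 CPM (5.14, adjusted p = 0.0198). The call of Notum was of a gene that passed the filter on low counts through the subclones alone, with 5 counts in 3H3P. Of these calls, Gpc1 and Notum were not made by limma-voom (adjusted p = 0.0758 and 0.137, the highest of 15 alternatives) and Gpc4 was not made on log2(TPM + 0.1) (0.0732, likewise the highest). Gpc2 and Gpc5 were at 0 counts in all 8 libraries.

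Dlk1 resembles the ligands of the Notch pathway, through which the fetal liver forms bile ducts. Of 15 tested Notch genes, 3 were higher, 1 lower and 11 did not pass (26.7% called, against 19.1% of all genes; median log2 fold change 0.97). Rbpj, the DNA-binding partner of Notch, averaged 358 ± 56.2 CPM in the subclones against 186 CPM in 3H3P (log2 fold change 0.95, SE 0.24, edgeR adjusted p = 0.0273). Notch2 averaged 376 ± 68.9 CPM against 193 CPM (0.97, adjusted p = 0.0435), and the modifying enzyme gene Rfng 27.6 ± 4.61 CPM against 11.95 CPM (1.21, adjusted p = 0.02655). The ligand gene Jag1 averaged 22.15 ± 9.04 CPM in the subclones against 67.9 CPM in 3H3P (−1.62, SE 0.45, adjusted p = 0.0342). The call of Notch2 was lost on log2(TPM + 0.1) and without subclone 1, 2, 6, 7 or 9 (adjusted p = 0.05035 to 0.0641, in a range of 0.00947 to 0.0641 over the alternatives). That of Jag1 was lost on both TPM scales and without subclone 1, 2, 3 or 6 (0.0503 to 0.102, in a range of 0.0147 to 0.102), and that of Rfng without subclone 3 (0.0508).

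Epcam and Prom1 belong with genes of bile duct and progenitor cells, and of 21 tested genes of that list 2 were higher, 9 lower and 10 did not pass (52.4% called, against 19.1% of all genes; median log2 fold change −1.29). Krt7, a bile duct keratin, averaged 8.81 ± 9.74 CPM in the subclones against 376 CPM in 3H3P (log2 fold change −5.41, SE 0.88, edgeR adjusted p = 0.00396, and −6.16 without subclone 2). Aldh1a1, a retinaldehyde dehydrogenase used as a progenitor marker, averaged 0.0433 ± 0.0744 CPM against 48.4 CPM (−9.80, adjusted p = 0.000123, and −10.61 without subclone 3), and Ehf, an epithelial ETS factor, 2.02 ± 1.69 CPM against 248 CPM (−6.95, adjusted p = 0.000387). Anpep, the surface peptidase CD13, was higher, with 46.7 ± 20.8 CPM in the subclones against 0.311 CPM in 3H3P (7.19, adjusted p = 0.00332), a call that limma-voom did not make (0.0956, the highest of 15 alternatives). Onecut1 and Onecut2, transcription factor genes of the fetal liver and bile duct, were named after their values were seen. Onecut1 had 0 counts over the subclones against 127 in 3H3P, at least 267-fold lower against 3 counts over the subclones. Onecut2 averaged 332.5 ± 39.6 CPM in the subclones against 152 CPM in 3H3P (1.13, adjusted p = 0.00699). Of the lower calls, 3 were of genes that passed the filter on low counts through 3H3P alone, Aldh1a1 with 5 counts over the subclones, Onecut1 with 0 and Cftr with 8. The higher call of Anpep was of a gene that passed it through the subclones alone. Krt23 and Thy1 were at 0 counts in all 8 libraries.

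Around Sox9 and Sox4, 5 other SOX genes were tested and 0 passed in edgeR, with a median log2 fold change of −0.83. Of all genes tested 19.1% were called, and 5 genes are too few to set apart from that share. Sox11, the nearest relative of Sox4 among them, averaged 17.1 ± 6.851 CPM in the subclones against 30.55 CPM in 3H3P (log2 fold change −0.83, SE 0.53, edgeR adjusted p = 0.297). Sox5 averaged 0.217 ± 0.205 CPM against 2.05 CPM (−3.20, adjusted p = 0.0748, in a range of 0.00172 to 0.197 over the alternatives) and was called by limma-voom and on both TPM scales. The filter on low counts was passed by Sox5 through 3H3P alone, with 33 counts there and at most 8 in a subclone. Sox6 averaged 0.597 ± 0.398 CPM against 2.43 CPM (−2.01, adjusted p = 0.111, in a range of 0.0372 to 0.789) and was called by limma-voom. Sox13 averaged 1.59 ± 0.5797 CPM against 2.80 CPM (−0.82, adjusted p = 0.341). Sox2 and Sox10 were at 0 counts in all 8 libraries.

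Of 21 tested partners of osteopontin and CD44, which are integrin subunits, makers and breakers of hyaluronan, linker proteins and proteases, 1 was higher, 3 lower and 17 did not pass (median log2 fold change −0.43). That is 19.05% called, near the 19.1% of all genes tested. Itgav, which encodes the integrin subunit of the main osteopontin receptors, averaged 108 ± 27.3 CPM in the subclones against 235 CPM in 3H3P (log2 fold change −1.12, SE 0.30, edgeR adjusted p = 0.0311). Its partner Itgb6 averaged 0.693 ± 0.6296 CPM against 17.8 CPM (−4.68, adjusted p = 0.00271), and Itgb1 680.3 ± 41.7 CPM against 936 CPM (−0.46, adjusted p = 0.0438). Thbs1, the matrix protein thrombospondin, rose to 1118 ± 242 CPM in the subclones against 204 CPM in 3H3P (2.45, SE 0.36, adjusted p = 0.00232). The call of Itgav was lost on both TPM scales and without subclone 9 (0.0514 to 0.148, in a range of 0.009875 to 0.148 over the alternatives). That of Itgb1 was lost in 10 of 15, among them without subclone 2, 3, 6, 7, 8 or 9 (0.0537 to 0.07675, in a range of 0.006995 to 0.128). Itga8 and the splicing factor gene Esrp1 were at 0 counts in all 8 libraries.

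**Figure D4:**
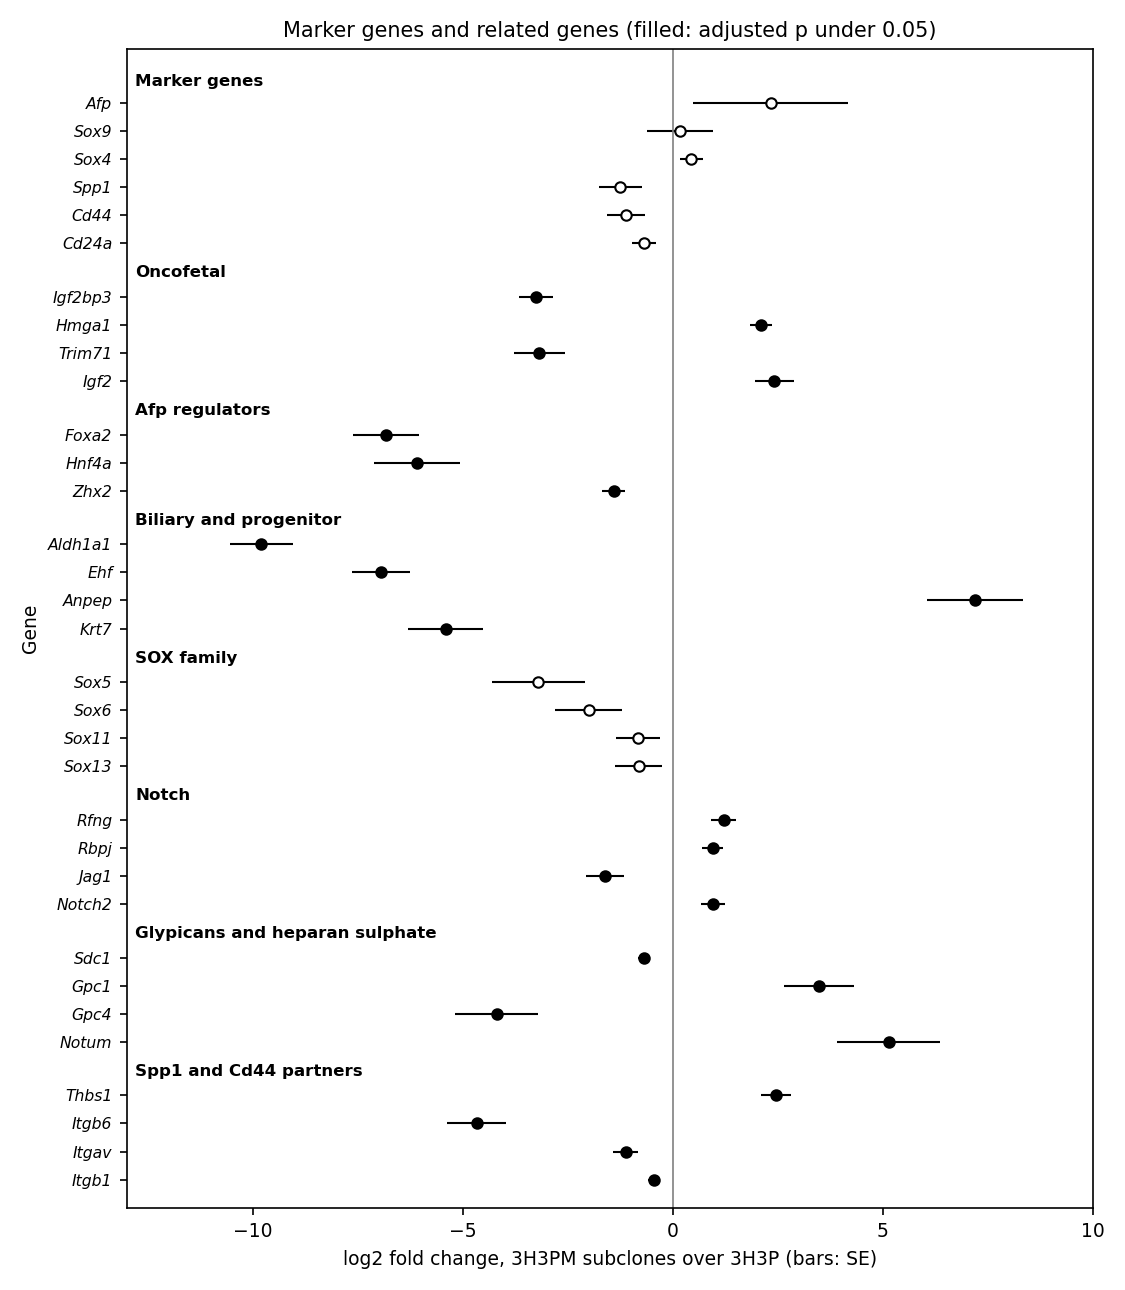
Log2 fold change of the 3H3PM subclones (n = 7) over 3H3P (n = 1) from edgeR, with bars for the SE, for the 6 tested marker genes and up to 4 genes of each related list with the smallest p. Filled points had an adjusted p under 0.05, and Foxa1, with 0 counts in 3H3P, is not drawn. All 6 marker genes are open points, from −1.25 for Spp1 to 2.33 for Afp, and the related genes spread to both sides, from −9.80 for Aldh1a1 to 7.19 for Anpep.

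The labelled tissue was checked against hepatocyte markers. Of 15, 7 were under 1 TPM in all 8 libraries, Alb had 33 counts over the subclones and 59 in 3H3P, and Cps1 had 0. The summed level was 61.0 to 183 TPM in the subclones and 2095 TPM in 3H3P. Of 7 tested, 5 were lower and 0 higher, with a median log2 fold change of −4.20. That is 71.4% called, against 19.1% of all genes, of which 11.8% were lower. Among the lower were Trf at 10.7 ± 4.71 CPM in the subclones against 688 CPM in 3H3P (edgeR adjusted p = 0.000143), Apob at 1.56 ± 2.48 against 586.5 CPM (0.000968, with a log2 fold change of −8.56, or −9.79 without subclone 9), Krt18 at 72.45 ± 25.45 against 690.4 CPM (0.000824) and Krt8 at 29.6 ± 15.7 against 543 CPM (0.00116). Albumin, the defining hepatocyte product, was thus near 0 in both groups, while transferrin, apolipoprotein B and keratins were well expressed in 3H3P. In bulk RNA, fewer cells of a type and less RNA per cell cannot be told apart.

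Markers of cells that a nude mouse host could add were read in the same way. The summed level of 8 lymphocyte genes was 0 to 0.22 TPM in the subclones and 0 in 3H3P. Of these 8 genes, 7 were at 0 counts throughout. The sum of 8 endothelial genes was 0.20 to 1.28 TPM in the subclones and 1.79 TPM in 3H3P, with Tie1 and Emcn at 0. Vwf, at 1.77 TPM, made up nearly all of the endothelial sum in 3H3P, and all 7 subclones were below 3H3P for it. Pecam1 ran the other way, with 48 counts over the subclones against 0 in 3H3P and all 7 subclones above 3H3P. It passed the filter on low counts through the subclones alone. Neither gene passed the test in edgeR, though Pecam1 did without subclone 7. Of 13 fibroblast and stellate genes the sum was 1.21 to 101 TPM in the subclones and 106 TPM in 3H3P, with Lum, Lrat, Thy1 and Dpt at 0. Its members ran in different directions. Dcn, which made up nearly all of the sum in 3H3P, had 1 count over the subclones against 1868 in 3H3P. Pdgfra, which carried the highest sums in the subclones, had 175 CPM in subclone 6, 349 in subclone 8 and 2.13 to 11.6 in the others, against 0.435 CPM in 3H3P (edgeR adjusted p = 0.252). Col3a1 had 562 counts over the subclones and 0 in 3H3P, and Postn 120 and 0, and neither passed (edgeR adjusted p = 0.142 for Col3a1 and 0.232 for Postn). The median log2 fold change of the 5 tested genes was 7.20, or 2.67 with the genes at 0 in 3H3P set to their bound. Among these 5, Dcn passed the filter on low counts through 3H3P alone. Pdgfra, Col3a1 and Postn passed it through the subclones alone, so the median is a description only.

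The sum of 12 macrophage genes was 37.7 to 126.5 TPM in the subclones and 366 TPM in 3H3P, mostly from Cd14, with 25.4 to 108 TPM in the subclones and 358 TPM in 3H3P. Of 4 tested macrophage genes Cd14 alone passed (25.0% called, against 19.1% of all genes). The log2 fold change was 0.22 for Cd68, 0.07 for Csf1r and 1.23 for Lyz2 (median of the 4, 0.14), with signs that turned in some alternatives. Ptprc, which defines blood cells, had 3 counts over the subclones and 0 in 3H3P, and Adgre1 had 4 and 0. C1qa had 4 counts over the subclones, C1qb 8, C1qc 10, Tyrobp 1 and Fcer1g 4, each against 0 in 3H3P. Itgam had 5 over the subclones and 10 in 3H3P. These genes had too few reads to be tested.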

How the data were processed

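RNA was read from 8 cell cultures, 7 of 3H3PM subclones and 1 of 3H3P. The authors deposited, per the file headers, RSEM expected counts, TPM and FPKM for 54838 genes per library. The genome build GRCm38 (mm10) and the tools STAR, RSEM, FastQC and DESeq2 are named in the submitters' processing notes, without versions. Per the labels' protocols the library kit was directional. RSEM divides reads shared between genes, so 3099 to 3459 genes per library had fractional counts. FPKM values were deposited by the authors and were only summarised, not tested.

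The authors' expected counts were rounded, filtered with filterByExpr by group, scaled by TMM and fitted with edgeR 4.0.16 (quasi-likelihood, R 4.3.3) as subclones against 3H3P, with 6 residual degrees of freedom. The pipeline was tested on simulated data. DESeq2 1.42.0, limma 3.58.1 (voom) and other settings, 15 alternatives in all, were tried. TPM values as deposited gave levels, with a pseudocount of 0.1 or 1 where logged. Log2 CPM for spread and correlations had a prior count of 2, and scipy 1.17.1 was used for permutations. Of 54838 identifiers, 53861 matched GENCODE vM21, the 10 marker genes among them, and gave coordinates on GRCm38.

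The marker genes and the gene lists were chosen with earlier results of these data known, and a few list genes are not reported here. Named were the 10 markers, up to 4 tested genes with the smallest p of each of 12 lists, and the 3 genes most alike in pattern to each marker of at least 10 CPM. Of the list of other-cell markers, 1 gene of 5 tested fibroblast genes (Dcn) and 1 of 4 macrophage genes (Cd14) were lower, and 0 of 2 endothelial genes passed in edgeR. Of all genes tested 19.1% were called, and Dcn passed the filter on low counts through 3H3P alone.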

Additional observations from a re-analysis of the deposited data

Results flagged for a closer look

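Among 50 genes examined over the 7 subclones, 9 had an isolate far from the others. This was judged by the gap to its nearest neighbour against the whole range (Dixon's criterion). Chance meets it in about 1 group in 20 if values follow a normal distribution. Here it was applied to CPM on a linear scale, often near 0, and all 9 isolates stood at the high end. Chance may therefore meet it more often in these data. In subclone 9 this held for 6 genes. Afp had 5.953 CPM there, with 2.186 CPM in the next subclone. Hnf4a, the hepatocyte nuclear factor, had 3.53 CPM there and 0.7028 in the next, and Apob, which encodes apolipoprotein B, 7.06 CPM and 1.597. Itgb6 had 2.077 CPM in subclone 9 and 0.6875 in the next, and Vwf, which encodes von Willebrand factor, 1.454 CPM and 0.3295. The Dcn value of 0.06922 CPM in subclone 9 is a single count, with 0 in the others.

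In subclone 2, Krt7 had 30.28 CPM, with 8.237 in the next, and Onecut2 had 411.1 CPM, with 336.7 in the next, just past the criterion. In subclone 7, Postn, which encodes periostin, had 4.278 CPM, with 1.722 in the next. In counts, the outlying subclone and the highest of the others had 474 and 121 for Krt7, 102 and 25 for Apob, 86 and 33 for Afp, 56 and 26 for Postn, 51 and 11 for Hnf4a, 30 and 9 for Itgb6, and 21 and 6 for Vwf.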

How the results depend on the processing

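No marker gene passed the threshold in any of the 15 alternatives. Correlations were repeated only on log2(TPM + 0.1), with library size alone and without each subclone in turn. No pair of markers correlated past the threshold. No paired analysis was possible because 3H3P has 1 library and no label matches it to a particular subclone. Without the single 3H3P library no comparison can be made. Genes called higher numbered 1072 and lower 1727. The split was 1675 and 1736 with DESeq2, 958 and 2239 with limma-voom, 1347 and 1329 on log2(TPM + 0.1), and 1285 and 1555 with library size alone. Leaving out 1 subclone at a time gave 669 to 1185 higher, the fewest without subclone 3, and 1322 to 1800 lower. Over the 12 lists, each gene counted once, 12 genes were higher and 27 lower, and limma-voom left 7 higher. The rank by mean TPM was kept by 6 to 10 of the 10 markers when 1 subclone was left out, by the fewest without subclone 2.

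Of 743 alternative values over 50 named genes, 693 kept direction and side of the threshold, 31 in 10 genes lost the call, 11 in 6 genes gained one, and 8 in 4 genes reversed. The reversals were in genes that were not called: with limma-voom Sox9 was at −0.0593, Lyz2 at −0.80, Cd68 at −0.0645 and Csf1r at −0.14; on log2(TPM + 0.1) Lyz2 was at −0.25 and Csf1r at −0.038; and without subclone 8 Cd68 was at −0.13, in a range of −0.13 to 0.34 over the subclones left out, and Csf1r at −0.16, in a range of −0.16 to 0.23. The cause was not tested. Testing with no filter moved the median log2 fold change of all genes by 0.18, to 0.21, and no other setting moved it by over 0.1.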

Other observations

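The values of 4 further list genes, chosen after they were seen, are given here, none of which passed the test. Tnfrsf12a, which encodes the receptor of the cytokine TWEAK, had 229 ± 23.7 TPM in the subclones (SD, n = 7) and 269 TPM in 3H3P. Fgfr2, a fibroblast growth factor receptor, had 184.5 ± 21.8 TPM in the subclones and 114 TPM in 3H3P (edgeR adjusted p = 0.0652). Met, the hepatocyte growth factor receptor, had 63.3 ± 18.5 TPM in the subclones and 91.7 TPM in 3H3P (edgeR adjusted p = 0.248). Jag2, a Notch ligand, had 14.4 to 74.6 TPM over the subclones and 8.35 TPM in 3H3P, with all 7 subclones above 3H3P and an edgeR adjusted p of 0.13.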
